A study of Homo sapiens with 9 samples.

Results

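The clustered histone genes are the replication-dependent histone genes that sit side by side on a few chromosomes. They were taken as every protein-coding row of the deposited count table whose gene symbol begins with HIST1H, HIST2H, HIST3H or HIST4H. The rule found 71 genes among 58735 rows, of which 19951 are protein-coding. There were 55 in the HIST1 cluster on chromosome 6, 12 in HIST2 and 3 in HIST3 on chromosome 1, and 1, HIST4H4, on chromosome 12. By class there were 6 linker H1 genes, 17 H2A, 18 H2B, 15 H3 and 15 H4 genes.

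RNA was sequenced from OVCAR3, an established human ovarian carcinoma cell line labelled wild type in genotype, after 72 h in culture in RPMI medium with serum and insulin. Cells carried a scramble short hairpin RNA (the control) or 1 of the hairpins 76 and 78 against GPX3, called sh76 and sh78 here, with 3 replicates in each group. A short hairpin RNA is processed in the cell into a guide that lowers matching mRNAs, and GPX3 encodes glutathione peroxidase 3, a secreted enzyme that reduces peroxides. The vector, the hairpin sequences and whether a line is 1 clone are not given in the sources used here. All groups share the cell line, its medium and the presence of a hairpin, and both hairpin groups were compared with the same 3 scramble libraries. The labels do not say that replicates were separate cultures, so p-values measure the spread between these libraries, which may be technical.

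Most mRNAs end in a poly-A tail, but replication-dependent histone mRNAs normally end a short way past the stop codon, after a stem-loop that is bound by the stem-loop binding protein SLBP and cut by a dedicated machinery. These mRNAs are made and kept mainly in S phase, when new DNA is packed into nucleosomes. If the cut is missed, or if a longer transcript is made, transcription can run on to a downstream poly-A signal and give a polyadenylated histone mRNA. The libraries were purified on poly-T beads, per the labels' protocols, so the counts below are of reads that passed poly-A selection, and the bulk of stem-loop-ended histone mRNA is not measured by them. In bulk RNA, fewer cells that express a gene and less RNA per cell cannot be told apart.

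Both ends of the choice are visible in the transcripts of the genes on which the results turn. The following sites were read from GENCODE 29 transcripts (GRCh38) and are shown because they mark where a stem-loop end and a poly-A end would lie. Capitals mark the stem-loop in the first line of each gene and the poly-A signal in the second.

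HIST2H2BE stem-loop: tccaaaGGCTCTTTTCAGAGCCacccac
HIST2H2BE poly-A signal: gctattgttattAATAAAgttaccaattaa
HIST1H4H stem-loop: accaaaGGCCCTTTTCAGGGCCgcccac
HIST1H4H poly-A signal: caataaaaggtgAATAAAatcaggtcactc
HIST1H2AC stem-loop: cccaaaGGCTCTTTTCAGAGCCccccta
HIST1H2AC poly-A signal: ctggcatgaggtAATAAAaggtaatgc

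HIST2H2BE (ENSG00000184678) spans chr1:149884459-149886652, HIST1H4H (ENSG00000158406) chr6:26277609-26285638 and HIST1H2AC (ENSG00000180573) chr6:26124145-26139116. The HIST2H2BE sites lie on the minus strand at chr1:149886182-149886209 and chr1:149884465-149884494. In that transcript the stem-loop began 56 bases past the stop codon and the poly-A signal 1777 bases past it. The HIST1H4H sites lie on the minus strand at chr6:26285125-26285152 and chr6:26281062-26281091, in a transcript whose stem-loop began 41 bases and whose signal began 662 spliced bases past the stop codon. The HIST1H2AC sites lie on the plus strand at chr6:26124663-26124690 and chr6:26139076-26139102, with distances of 43 and 1158 spliced bases.

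Across the family, the stem-loop was searched past the stop codon as a 16-base hairpin that starts with GG, has a loop of TTT and any base, and closes with the exact reverse complement of its stem. It was found in 30 of the 71 genes, against 0.1035% of 62805 protein-coding transcripts. A poly-A signal (AATAAA or ATTAAA, on the transcript strand, in the last 50 bases) was found in 22 genes, against 56.84% of those transcripts, and 19 genes had both. A gene was counted if any of its coding transcripts held the site, while the shares are of single transcripts. In HIST1H2BC and HIST1H2BN the stem-loop and the signal lie in different transcripts. In HIST1H4J the signal begins 15 bases past the stop codon, before the stem-loop at 22. The search depends on how far each model reaches, since 35 models end at the stop codon itself. Of the 29 models that run at least 100 bases past it, 26 hold the stem-loop and 21 the signal. All 71 model lengths in the deposited table equalled the exon length in GENCODE 29, so reads past a model's end were not counted for that gene.

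The promoters of 61 members were matched in RefSeq (GRCh38.p14), as 250 bases before to 50 after the transcript start. The following windows are shown because these genes lead the results by level or by test, and capitals mark the motif that was searched.

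HIST2H2BE octamer: tcggagccctaATTTGCATaaggtggttat
HIST1H2BK octamer: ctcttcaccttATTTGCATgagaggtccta
HIST1H2AC octamer, reverse strand: tgggcagagctATGCAAATgaggtatgaaa
HIST1H1C CCAAT: gcgaccagagcaCCAATcagagcgcgcctg

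These windows lie at chr1:149886710-149886739 (minus strand), chr6:27146886-27146915 (minus), chr6:26124031-26124060 (plus) and chr6:26056510-26056539 (minus). The octamer ATTTGCAT, the letters bound by POU-domain factors such as OCT1, was found on either strand in 14 of 18 H2B and 11 of 14 H2A promoters. It was in 0 of 6 H1 and in 0 of 13 H4 promoters, against 1.77% of all 35116 promoters. Paired H2A and H2B genes share a promoter region, and 8 of the 11 H2A octamers had the coordinates of an H2B octamer, so the class counts are not independent and come from 17 distinct sites. The octamer shown for HIST1H2AC also lies in the promoter of HIST1H2BC, and the one for HIST2H2BE in that of HIST2H2AC. Of 10 matched H3 promoters, the RefSeq window of HIST1H3D is the same as that of HIST1H2AD, and 0 of the other 9 held the octamer. CCAAT, the box bound by NF-Y, was found on either strand in all 48 matched promoters outside the H4 class (6 H1, 14 H2A, 18 H2B and 10 H3, HIST1H3D included) and in 3 of 13 H4 promoters, against 34.61% of all promoters. TATAAA was found on either strand, anywhere in the window, in 3 H1, 10 H2A, 12 H2B, 8 H3 and 7 H4 promoters, against 11.53%. These are not all a gene's own TATA box. The matches of HIST1H2BC, HIST1H2BM, HIST1H2BO and HIST1H2AE are on the reverse strand. They have the coordinates of matches in HIST1H2AC, HIST1H2AJ, HIST1H2AM and HIST1H2BG. Those of HIST1H2BE and HIST4H4 begin at −189 and −250 from the start. A match is a description of the letters and not of a bound site.

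Libraries held between 14652965 and 21327562 counts, of which the histone genes took 8470 to 13875, or 0.0485% to 0.0700%. In a library, 55 to 58 of the 71 genes had at least 1 count, and 49 had counts in all 9 libraries. GPX3 had 133 ± 34.8 CPM (SD, n = 3; CPM is the count scaled by library size and TMM factors) with scramble, 55.9 ± 0.852 with sh76 and 30.6 ± 4.01 with sh78, and no hairpin library reached the scramble range. The 8 markers of ovarian carcinoma were present in all groups (KRT8 4750 CPM, MUC16 1646 CPM and PAX8 869 CPM on average), but their level moved with the groups. They summed to 10763 to 11527 CPM with scramble, 9502 to 10149 with sh76 and 8690.5 to 9055 with sh78, with no overlap. Of the 8, PAX8 fell with sh76, and EPCAM, KRT8 and KRT18 fell with sh78 (edgeR). Over all genes, edgeR called 1.43% higher and 2.16% lower with sh76, and 1.85% and 2.56% with sh78. With the replicate block described below, 6 fell and 1 rose with sh76, and 3 fell with sh78. The block called 9.63% of all genes higher and 10.7% lower with sh76, and 9.79% and 10.1% with sh78. Of 11 markers of leukocytes, fibroblasts and endothelium, only COL1A1 (36.3 CPM) and VWF (7.82 CPM) exceeded 3 CPM on average, and none was at 0 in all libraries. The summed level of the 4 fibroblast markers was 27.5 to 39.2 CPM with scramble, 30.8 to 52.4 with sh76 and 34.6 to 47.1 with sh78. The leukocyte markers summed to 1.22 to 2.70, 2.42 to 2.82 and 2.54 to 3.39 CPM, and the endothelial markers to 8.10 to 10.8, 6.23 to 9.21 and 6.81 to 10.7 CPM, in the same order of groups. Of the 2 fibroblast markers tested, 0 were called against scramble in edgeR, while with the block 1 rose with each hairpin. Of the leukocyte and endothelial markers tested, 0 were called against scramble in either fit. The part of these marker levels in the results below was not tested.

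Polyadenylated histone reads came from few genes. HIST1H1C, which encodes the linker histone H1.2, gave 19.0% of the 94533 histone counts, and the core histone genes HIST1H2BK, HIST1H2AC, HIST2H2BE and HIST1H4H gave 17.1%, 13.9%, 9.88% and 5.10%. With HIST1H4I, HIST1H2BD, HIST1H2BC, HIST1H2BG and HIST3H2A they made up 83.5%. The 18 histone genes listed here as also giving polyadenylated mRNA held 83.2% of the counts and the other 53 genes 16.8%. This list was drawn up with earlier results of these data known, so its share is a description and tests nothing. It holds HIST1H3D, which had 0 counts, and leaves out HIST1H4I, which had 4.88%.

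Per length, HIST1H2BK and HIST1H1C stood highest, with a mean of 270 and 177 FPKM (fragments per kilobase of gene model, scaled by depth) over the 9 libraries. HIST1H2AC followed with 49.7, HIST1H2BD with 29.7, HIST2H2BE with 26.8, HIST1H2BC with 26.6 and HIST1H4I with 22.6 FPKM. HIST1H4H, HIST1H2BG and HIST3H2A had 14.03, 13.9 and 13.8 FPKM. In the order of the levels, HIST1H2BK lay above HIST1H1C in every library. The neighbours HIST1H2BD (20.96 to 37.6 FPKM), HIST2H2BE (18.3 to 33.8) and HIST1H2BC (19.8 to 34.1) overlapped over the libraries. A mean FPKM of at least 10 was reached by 11 genes and of at least 1 by 34.

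The level went with the extent of the gene model only in part. The 29 genes with at least 100 bases past the stop codon had a median of 2.77 FPKM, and 24 of them passed the count filter. The other 42 had a median of 0.530 FPKM and 11 passed. HIST1H1C and HIST1H2BK are exceptions, since their models of 642 and 381 bases end at the stop codon. A total of 10 genes were listed at 0 in all 9 libraries, which allows up to 3 counts in a library, or 0.143 to 0.206 CPM (counting error only). All 10 have models that end at the stop codon, and 5 overlap another gene. Among these, HIST1H2AD and HIST1H3D are covered by AL031777.3, HIST1H2AK by HIST1H2BN and most of HIST1H2AM by HIST1H3J. Reads of genes that overlap could have been set aside by the counting, and its settings are not given in the sources used here, so a 0 there does not show a missing transcript.

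**Figure D1:**
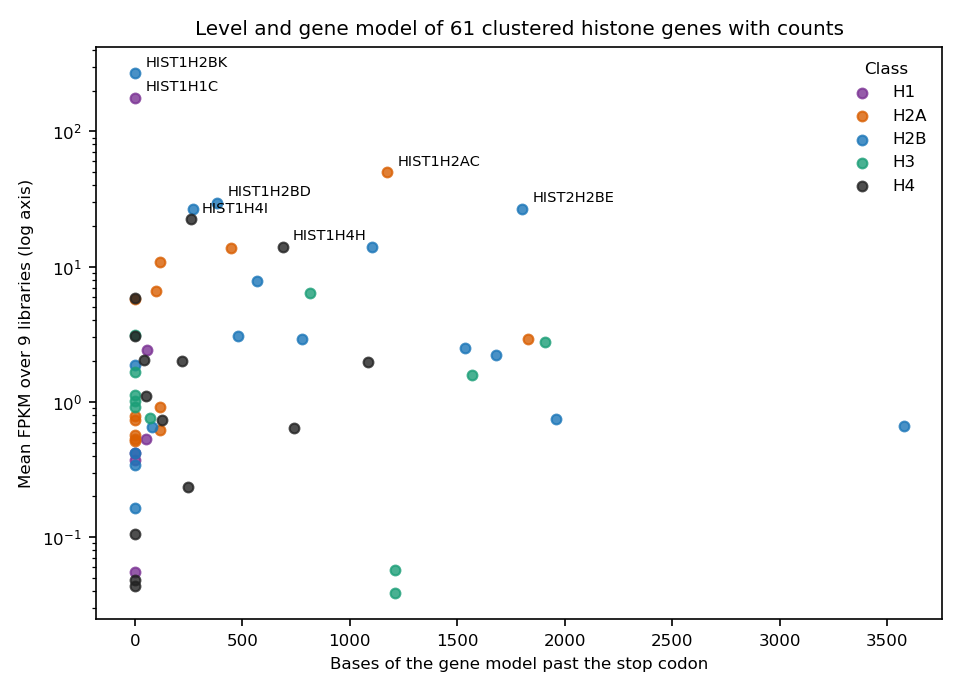
Mean FPKM over the 9 libraries (log axis) against the number of bases that each gene model runs past the stop codon, for the 61 clustered histone genes with counts, coloured by class. HIST1H2BK (270 FPKM) and HIST1H1C (177 FPKM) stand highest with models that end at the stop codon, and HIST1H2AC (49.7 FPKM) is the highest of the longer models.

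With sh76, the summed level of the histone genes was higher than with scramble. It was 586, 563 and 494 CPM in scramble replicates 1 to 3, 687, 672 and 605 CPM with sh76, and 648, 620 and 550 CPM with sh78. All sh76 libraries lay above all scramble libraries, while the sh78 range overlapped the scramble range. The means were 548 ± 47.6, 655 ± 43.5 and 606 ± 50.3 CPM (SD, n = 3), so the level was 1.20 times that of scramble with sh76 and 1.11 times with sh78. No test was run on sums, because the gene set was chosen with results known.

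The sums were also read by class, and a difference between classes was not tested. The ratio of sh76 to scramble was 1.29 for H2A, 1.19 for H2B, 1.31 for H3 and 1.29 for H4, with no overlap between the groups in any of these. The H1 sum, nearly all of it HIST1H1C, had a ratio of 1.05 and overlapped. Single genes weigh in other classes too. With scramble HIST1H2AC held 74.6 of 102 CPM of the H2A sum and HIST1H2BK 95.9 of 244 CPM of the H2B sum. With sh78 the ratios were 1.11, 1.15, 1.07 and 1.18 for H2A, H2B, H3 and H4 and 0.982 for H1, and only the H4 sum did not overlap. The HIST2 sum, led by HIST2H2BE, was 1.42 times and 1.24 times scramble with sh76 and sh78, against 1.16 and 1.09 for HIST1. HIST2H2BE held 46.9 of 60.4 CPM of the HIST2 sum with scramble and 70.3 of 85.9 with sh76. The HIST2 ratio is thus mostly that of this gene, and a difference between clusters is not shown. Genes whose models run at least 100 bases past the stop codon summed to 1.28 times scramble with sh76, and those with shorter models to 1.07 times, where the groups overlapped. The shorter models summed to 227 CPM with scramble and 244 with sh76. Of these, HIST1H1C held 114 and 119 CPM and HIST1H2BK 95.9 and 102. Both are HIST1 genes with shorter models, so they weigh most in that ratio and much in that of HIST1.

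**Figure D2:**
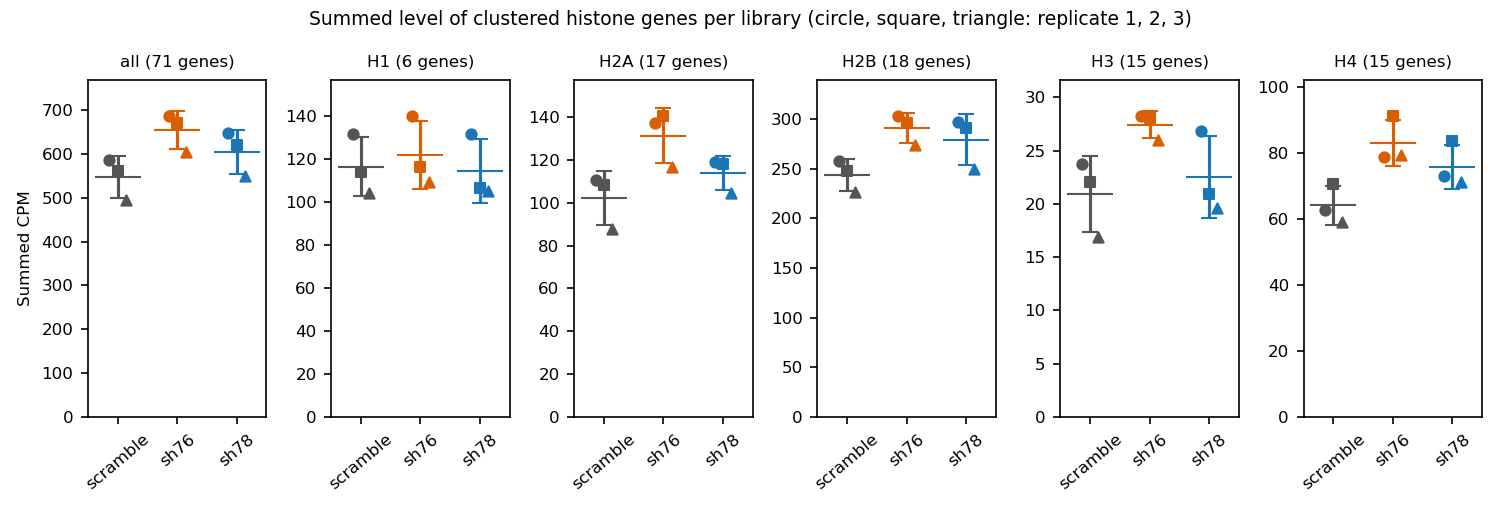
Summed CPM of all 71 histone genes and of each class, with 1 point per library (circle, square and triangle for replicates 1, 2 and 3), the mean as a line and the SD as a bar (n = 3). For all genes the sh76 libraries, at 605 to 687 CPM, lie above the scramble libraries at 494 to 586 CPM, and replicate 3 is the lowest in each group.

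Gene by gene, 35 of the 71 passed the filter on low counts and were tested with edgeR over all 17023 genes that passed, with a call at an adjusted p under 0.05 (Benjamini-Hochberg). With sh76, 2 of the 35 rose, HIST2H2BE and HIST1H4H, and 0 fell. Over all genes, 1.43% were called higher and 2.16% lower in the same comparison. At an unadjusted p under 0.05 there were 12, of which 11 were higher, and 17.4% of all genes tested passed that mark. Fold changes were above 0 in 32 of 35 members, with a median log2 fold change of 0.36, against 51.4% and 0.01 over all genes. In 14 of 35 members every sh76 library lay above every scramble library, and in 0 below, where 10.8% of all genes lay above in this way. These 35 genes share a pathway and some share reads, so they are not independent of each other.

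HIST2H2BE, an H2B gene, had 48.6, 52.0 and 40.2 CPM in scramble replicates 1 to 3. It had 73.3, 75.0 and 62.6 CPM with sh76 and 63.9, 66.4 and 52.0 CPM with sh78. Every sh76 library was above every scramble library, and sh78 replicate 3 lay at the top of the scramble range. The mean went from 46.9 ± 6.07 to 70.3 ± 6.75 CPM (SD, n = 3), or by 0.58 ± 0.11 (SE) in log2 units, at an adjusted p of 0.0128 in edgeR. The call did not hold without scramble replicate 3 (edgeR adjusted p 0.0549) and without sh76 replicate 2 (0.0724), with log2 fold changes of 0.48 and 0.53.

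HIST1H4H, which encodes histone H4, had 21.4, 29.6 and 22.2 CPM in scramble replicates 1 to 3. The values were 33.4, 40.7 and 33.6 CPM with sh76 and 27.7, 35.6 and 31.1 CPM with sh78. All sh76 libraries lay above the scramble range, and sh78 overlapped it through replicate 1. The rise with sh76 was 0.56 ± 0.13 (SE) in log2 units, at an adjusted p of 0.0362 in edgeR. It missed the threshold in 5 of 9 fits with 1 library removed, namely without scramble replicates 1 and 3, sh76 replicates 2 and 3 and sh78 replicate 3, at edgeR adjusted p values of 0.0562 to 0.170. It also missed it in limma on log2(FPKM + 1), with an adjusted p of 0.0619.

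Over all genes, replicate numbers paired the libraries across groups, so a fit with the number as a block was read beside these counts. Over the histone genes alone the correlations of same-numbered pairs overlapped those of the others (−0.196 to 0.423 against −0.351 to 0.271). With the block, 14 of the 35 members rose with sh76 and 0 fell, including both genes above, while 9.63% of all genes were called higher and 10.7% lower. The 14 were 4 H2A, 5 H2B, 2 H3 and 3 H4 genes. HIST1H2AC, a core H2A gene, had 78.0, 81.2 and 64.5 CPM with scramble and 98.0, 104 and 84.7 CPM with sh76. Its groups did not overlap, and its log2 fold change of 0.36 had an edgeR adjusted p of 0.0547, or 9.9e-07 with the block. HIST1H4E, an H4 gene, had the highest value of the 35, 1.00 ± 0.27 (SE) in log2 units, at an adjusted p of 0.0593 in edgeR and 0.000492 with the block. It had 2.89, 1.70 and 1.32 CPM with scramble, 3.95, 4.12 and 3.67 CPM with sh76 and 3.72, 2.61 and 2.60 CPM with sh78.

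The remaining block calls with sh76 were HIST1H2AE, HIST1H2AG, HIST1H2AI, HIST1H2BC, HIST1H2BD, HIST1H2BF, HIST1H3E, HIST1H3G, HIST2H2BF and HIST4H4, named because the block called them. HIST1H2BD had 22.8 ± 4.11 CPM with scramble and 29.3 ± 3.44 with sh76 (SD, n = 3), and HIST1H2BC had 21.1 ± 1.09 and 26.4 ± 2.05 CPM. HIST1H1C and HIST1H2BK, the most abundant members by counts, had small differences, while HIST1H2AC and HIST2H2BE, next in order, were called with the block. HIST1H1C had 114 ± 13.5 and 119 ± 15.8 CPM with scramble and sh76, a log2 difference of 0.06 with an approximate 95% interval of −0.16 to 0.29. HIST1H2BK had 95.9 ± 6.57 and 102 ± 3.71 CPM, a log2 difference of 0.08 with an approximate interval of −0.05 to 0.21. Such intervals were built from the SE with a normal distribution. They are narrower than the edgeR test with its few degrees of freedom would give.

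The lowest value with sh76 belonged to HIST2H4B, −2.56 in log2 units, which edgeR did not call (adjusted p 0.117). Its counts were 44, 7 and 41 with scramble, 3, 9 and 6 with sh76 and 17, 44 and 11 with sh78, so the groups overlapped. HIST2H4B and HIST2H4A carry the same last 300 coding bases, so reads could go to either copy, and each also overlaps an H3 gene (HIST2H3A and HIST2H3C). Summed, the copies had 53, 17 and 49 counts with scramble and 8, 31 and 10 with sh76, and the log2 fold change became −1.51 (edgeR adjusted p 0.219). DESeq2 and the fit without a filter on low counts called the unsummed gene lower with sh76 (adjusted p 0.00794 and 2.83e-06), as did edgeR without scramble replicate 2 (0.0273). HIST2H2AA3 and HIST2H2AA4, HIST2H3A and HIST2H3C, and HIST1H4J and HIST1H4K share coding bases in the same way, and their single values are uncertain.

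**Figure D3:**
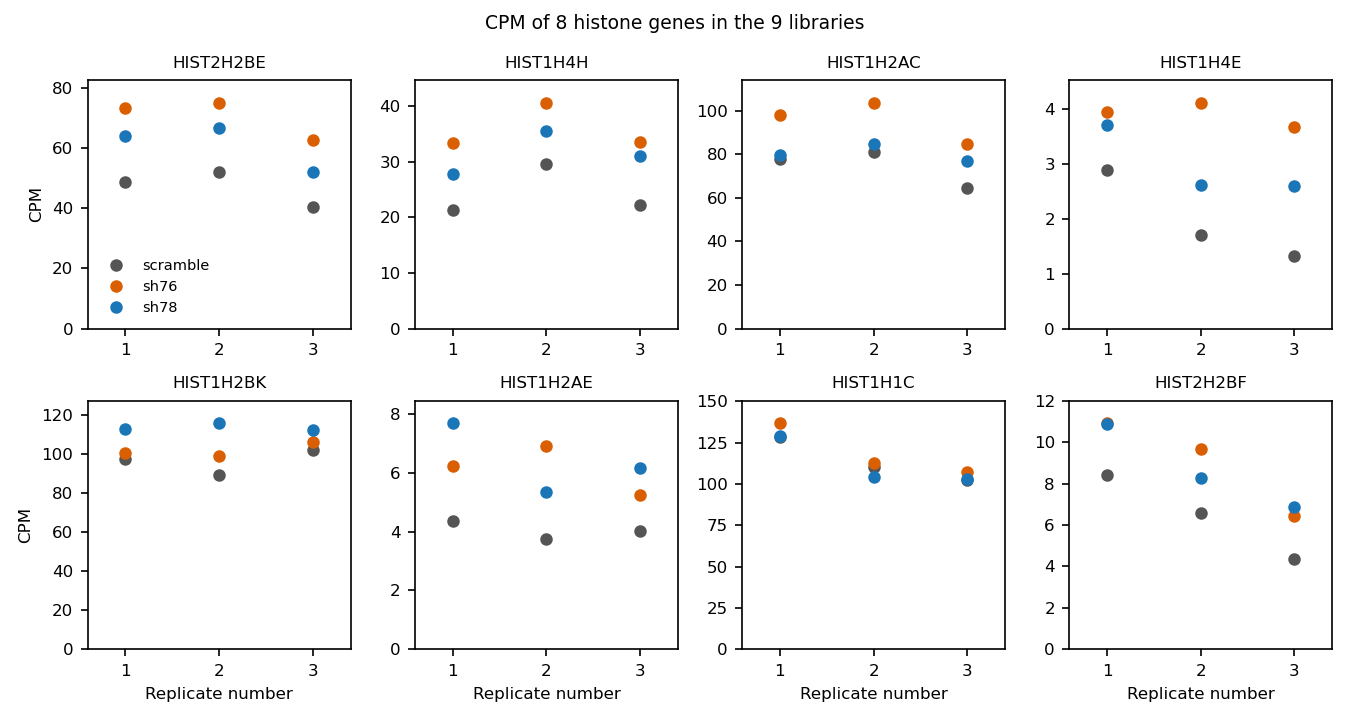
CPM of 8 histone genes in each of the 9 libraries by replicate number, coloured by group. For HIST2H2BE and HIST1H4H the sh76 points lie above the scramble points at each number with sh78 between them, while for HIST1H2BK the sh78 points are the highest and for HIST1H1C the groups overlap.

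With sh78, 0 of the 35 members were called in edgeR in either direction, while 1.85% of all genes were called higher and 2.56% lower. At an unadjusted p under 0.05 there were 7, all higher, against 17.5% of all genes. DESeq2 called 2, both higher, while it called 989 of all 17023 genes. Fold changes were above 0 in 23 of 35, with a median log2 fold change of 0.11 (51.3% and 0.01 over all genes). In 3 members, HIST1H2AE, HIST1H2BK and HIST1H4I, every sh78 library lay above every scramble library, where 10.2% of all genes did so. With the replicate block 7 members rose and 0 fell, against 9.79% higher and 10.1% lower over all genes.

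HIST1H2BK, the H2B gene with the highest level, had 97.2, 88.8 and 102 CPM in scramble replicates 1 to 3, 100.2, 98.9 and 106 CPM with sh76, and 113, 116 and 112 CPM with sh78. The sh78 libraries were the 3 highest. The difference with sh78 was 0.24 ± 0.07 (SE) in log2 units, at an adjusted p of 0.0568 in edgeR and 0.000259 with the block. HIST1H2AE, an H2A gene, had 4.37, 3.76 and 4.02 CPM with scramble, 6.23, 6.93 and 5.25 CPM with sh76, and 7.70, 5.36 and 6.17 CPM with sh78. Neither hairpin group overlapped scramble. Its log2 fold change was 0.67 with sh78, the highest of the 35 (edgeR adjusted p 0.0622, block 0.00313), and 0.60 with sh76, called only with the block (0.00672).

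HIST2H2BE and HIST1H4H had log2 fold changes of 0.37 and 0.36 with sh78 (edgeR adjusted p 0.0943 and 0.170). With the block both rose (2.45e-06 and 0.000235), and both were called without a low-count filter (edgeR adjusted p 0.00172 and 0.0268). HIST2H2BE was also called without sh78 replicate 3 (0.0463). HIST1H2AG, HIST1H3E and HIST2H2BF were the other block calls. HIST2H3D, an H3 gene, had the lowest log2 fold change with sh78, −0.69 (edgeR adjusted p 0.340), at 1.503 ± 0.539 CPM with scramble and 0.922 ± 0.127 with sh78 (SD, n = 3). HIST1H1C had 112 ± 14.7 CPM with sh78, and its log2 difference from scramble of −0.02 had an approximate 95% interval of −0.25 to 0.21, built as above.

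**Figure D4:**
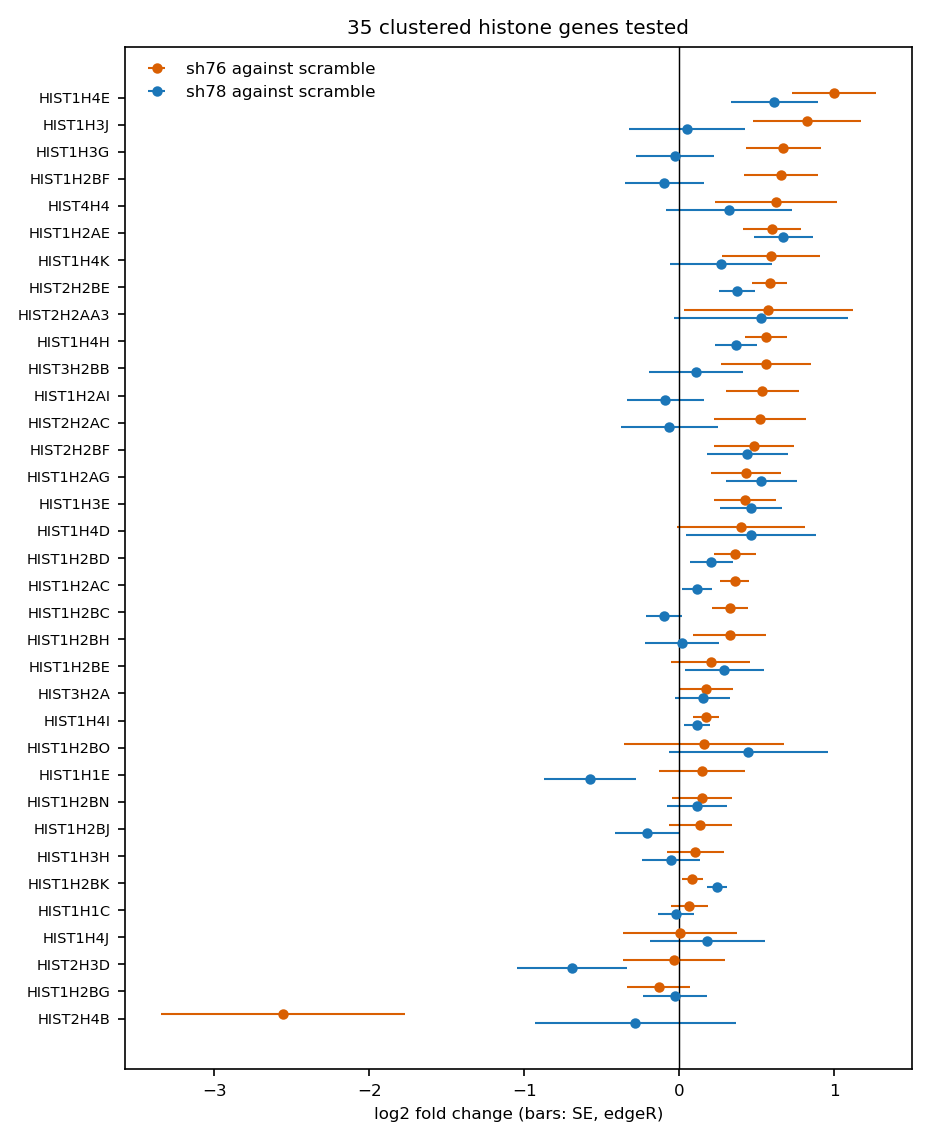
Log2 fold change of each of the 35 tested histone genes with sh76 and with sh78 against scramble, with the SE as a bar and the genes ordered by sh76. Of the sh76 values 32 lie above 0 and of the sh78 values 23, and HIST2H4B, with reads shared with a copy, stands apart at −2.56; both comparisons use the same scramble libraries.

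The hairpins were then compared directly. Of the 35 members, 0 were called in edgeR between sh78 and sh76, while 1.97% of all genes were higher and 1.72% lower with sh78. At an unadjusted p under 0.05 there were 9 (2 higher with sh78, 7 lower), where 16.3% of all genes passed that mark. DESeq2 called 1 in each direction, while it called 856 of all 17023 genes. Only 10 of 35 fold changes were above 0, with a median log2 fold change of −0.16 (50.1% and 0.00 over all genes). With the block, HIST1H2BK was higher with sh78 and 6 members were lower, namely HIST1H2AC, HIST1H2AI, HIST1H2BC, HIST1H2BF, HIST1H3G and HIST2H2BE, against 9.69% higher and 8.62% lower over all genes.

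HIST1H2BC, an H2B gene, had 22.3, 20.5 and 20.4 CPM in scramble replicates 1 to 3, 25.5, 28.7 and 24.9 CPM with sh76 and 20.2, 22.1 and 16.6 CPM with sh78. Its sh78 libraries all lay below its sh76 libraries, by −0.43 in log2 units (edgeR adjusted p 0.0564, block 0.000228). HIST2H2BE was lower with sh78 in all 3 same-numbered pairs, with a log2 difference of −0.21 (edgeR adjusted p 0.397, block 0.00397). The lowest of the 35 was HIST1H3J, an H3 gene, at −0.77 (adjusted p 0.284), with 1.82 ± 0.526 CPM with sh76 and 1.04 ± 0.387 with sh78 (SD, n = 3). HIST2H4B was the highest at 2.27 (edgeR adjusted p 0.180), and 1.09 with its copy summed (0.440). Unsummed, every sh78 library lay above every sh76 library, and DESeq2 and the fit without a low-count filter called it higher with sh78 (adjusted p 0.0260 and 9.77e-05). GPX3 was lower with sh78 than with sh76, and the mean histone sum was nearer to scramble with sh78. The histone sums of the hairpin groups overlapped, at 605 to 687 CPM with sh76 and 550 to 648 CPM with sh78. A relation of the sum to the GPX3 level was not tested.

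Levels were then compared across replicate numbers. In the fit with group and number, 14 of the 35 members differed by replicate number (edgeR F test over both number terms, adjusted p under 0.05), against 28.8% of all genes. Replicate 3 was below replicate 1 in 32 of 35 members and below replicate 2 in 31. The median log2 difference of replicate 3 from replicate 1 was −0.37, where all genes had 0.00, and that of replicate 2 from replicate 1 was −0.07. In 16 members replicate 3 was the lowest library in all 3 groups. The shares of all genes with these orders were not counted, so the counts of members cannot be set against them. What the numbers stand for is not given in the labels.

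HIST1H1C had the smallest p (edgeR adjusted p 3.3e-07). It had 129, 110.2 and 102 CPM in scramble replicates 1 to 3, 137, 113 and 107 CPM with sh76 and 129, 104 and 103 CPM with sh78. Replicate 1 was the highest in each group, with log2 differences from it of −0.27 for replicate 2 and −0.34 for replicate 3. HIST2H2BF, an H2B gene of the HIST2 cluster, had 8.42, 6.57 and 4.36 CPM with scramble, 10.9, 9.69 and 6.44 CPM with sh76 and 10.9, 8.25 and 6.89 CPM with sh78. Replicate 3 was the lowest in each group, at −0.78 from replicate 1 (edgeR adjusted p 6.73e-05).

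The H2B genes HIST2H2BE, HIST1H2BG, HIST1H2BE, HIST1H2BD and HIST1H2BJ had replicate 3 below replicate 1 by log2 differences of −0.26, −0.31, −0.68, −0.38 and −0.58. The H2A genes HIST1H2AC and HIST3H2A had −0.18 and −0.49. HIST1H4H went the other way, with replicate 1 the lowest in all 3 groups and differences of 0.36 for replicate 2 and 0.07 for replicate 3 (edgeR adjusted p 0.000257). HIST1H2BK (102 to 112 CPM in replicate 3) and HIST1H4I had differences of 0.05 and 0.03 and were not called. HIST1H2BE shares exon bases with AL353759.1 and HIST2H2BF with FCGR1A, so reads there may not be theirs alone.

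**Figure D5:**
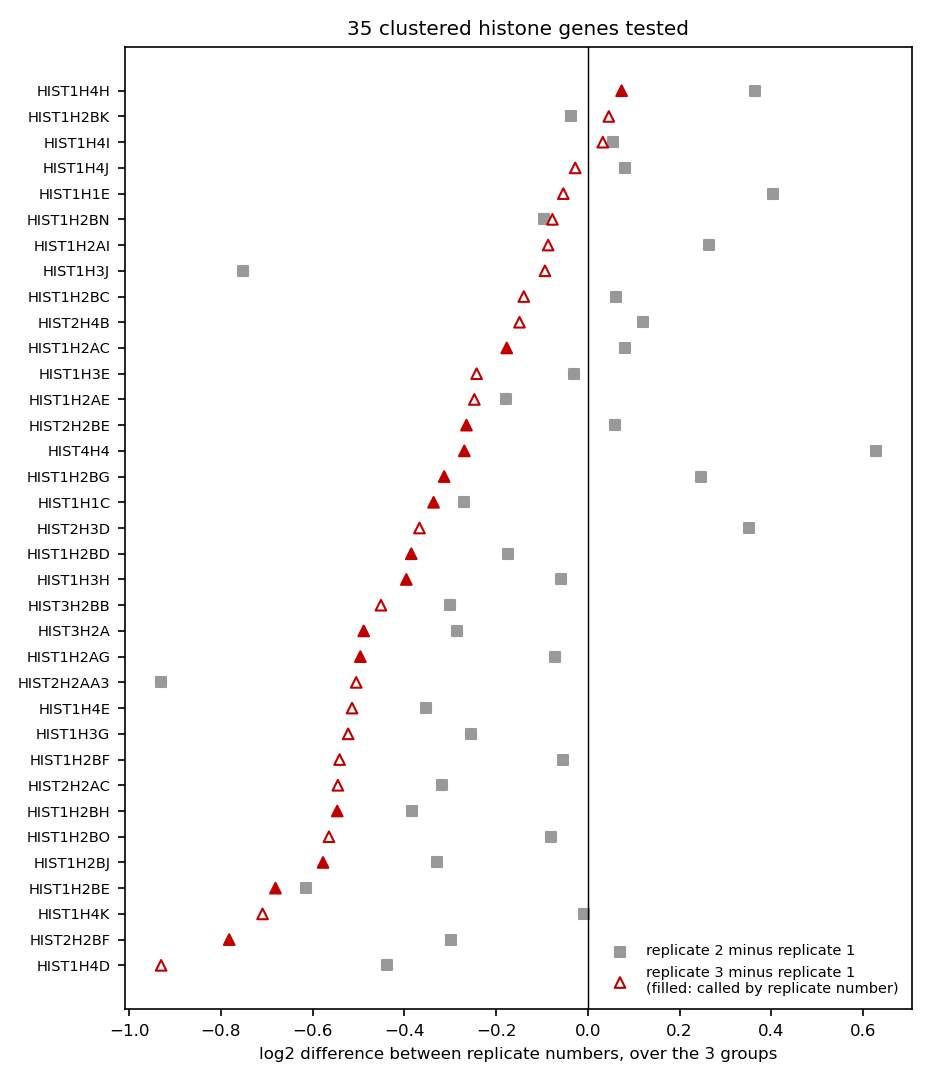
Log2 difference of replicate 2 (squares) and replicate 3 (triangles) from replicate 1 over the 3 groups for the 35 tested histone genes, with filled triangles for the 14 genes called by replicate number. Replicate 3 lies below replicate 1 in 32 genes, and HIST1H4H and HIST1H4I lie above 0 for both numbers.

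RNAs without a poly-A tail were used as a measure of what passed the poly-T selection without a tail. Of 22 such genes 10 were listed at 0 and 2 were tested, with 0 called against scramble, RN7SL2, the signal recognition particle RNA, and SNORD3A, a nucleolar RNA. RN7SL2 had 135, 142 and 94.7 CPM with scramble, 119, 127 and 95.6 CPM with sh76 and 111, 120 and 87.9 CPM with sh78. It was lowest in replicate 3 of each group, as the histone sum was, and differed from scramble by −0.12 with sh76 and −0.22 with sh78 in log2 units (edgeR adjusted p 0.790 and 0.600). With the block it fell with sh78 (adjusted p 0.000854). SNORD3A had only 13, 7 and 11 counts with scramble, 28, 9 and 16 with sh76 and 2, 5 and 7 with sh78. Its log2 differences were 0.60 with sh76 and −1.07 with sh78 (edgeR adjusted p 0.620 and 0.443), so these RNAs had opposite signs with sh76. SNORA73B, a small nucleolar RNA, had 0.438 CPM on average. The part of such carry-over in the histone values, by replicate or by hairpin, was not tested.

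Other histone genes and genes that process and carry histones were read in the same fits. Their counts stand beside 1.43% of all genes higher and 2.16% lower with sh76, and 1.85% and 2.56% with sh78. With the block the shares were 9.63% and 10.7%, and 9.79% and 10.1%. The replacement histones are mostly made outside S phase from polyadenylated mRNAs, while H2AFX is known to give both a stem-loop-ended and a polyadenylated mRNA. Of 12 such genes 11 were tested, and with sh76 1 fell and 0 rose. H3F3B, which encodes H3.3, went from 770 ± 47.7 to 626 ± 32.6 CPM (SD, n = 3), or −0.30 in log2 units (edgeR adjusted p 0.0177). With sh78, 2 rose and 0 fell. H2AFV, an H2A.Z gene, rose by 0.29 in log2 units (edgeR adjusted p 0.0084) and H2AFX, the gene of the damage-responsive H2A.X, by 0.24 (0.0415). With the block, 2 of the 11 rose and 4 fell with sh76, and 2 rose and 3 fell with sh78.

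Among 20 tested genes of histone gene transcription and mRNA 3′ end formation, which include NPAT and SLBP, 0 were called with sh76. With sh78, 1 fell, LSM10 of the U7 particle that guides the stem-loop cut, from 19.96 ± 0.684 to 15.2 ± 0.830 CPM (−0.39 in log2 units, edgeR adjusted p 0.0496). With the block 2 rose and 1 fell with sh76, and 2 rose and 3 fell with sh78. Of the 18 histone chaperones 0 were called with either hairpin, and the block called 3 higher and 3 lower with sh76 and 4 higher and 1 lower with sh78. Of 20 S phase genes 0 were called with sh76. With sh78, 2 rose, the replicative helicase genes MCM3 (log2 fold change 0.27, edgeR adjusted p 0.013) and MCM4 (0.25, 0.0193). The block called 3 higher and 1 lower with sh76 and 4 higher and 1 lower with sh78. The medians of the 20 S phase genes were 0.02 with sh76 and 0.06 with sh78 on the log2 scale, against 0.36 and 0.11 for the histone genes.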

How the data were processed

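The authors deposited whole-number counts per gene and FPKM values for 9 libraries. The submitters' processing notes name HISAT2 2.0.5, featureCounts 1.5.0-p3 and the build hg38. Libraries were non-directional, per the labels' protocols. The deposited counts entered edgeR 4.0.16 under R 4.3.3 (filterByExpr with minimum count 10 and minimum total 15, TMM factors, robust quasi-likelihood fit over all 9 libraries, 6 residual degrees of freedom). Adjusted p-values cover all 17023 genes tested. CPM use the TMM-scaled library sizes. The deposited FPKM values were used to compare levels between genes and in limma 3.58.1 with a pseudocount of 1 or 0.1. DESeq2 1.42.0 was an alternative. The tests were tested on simulated data, where they recovered most but not all changed genes and the share of false calls was above the nominal rate, most so in edgeR. Replicates within a group differed beyond sampling noise (chi-square per degree of freedom 4.90 to 11.1). Deviations from the group means correlated across genes at 0.231 to 0.500 in the 9 same-numbered pairs and at −0.398 to 0.0851 in the other 18, so the numbers were read as pairing the libraries.

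The histone genes and all gene lists were chosen with earlier results of these data known. The genes named are GPX3, the 10 members with the highest mean FPKM, members called in any contrast, up to 10 called by replicate number with the smallest p, the highest and lowest fold change in each contrast, genes with near-identical copies, up to 4 called genes of each other list, and the 3 highest RNAs without a tail. Other genes were named after their values were seen. Sequences come from GENCODE 29 transcripts and RefSeq promoters.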

Additional observations from a re-analysis of the deposited data

Results flagged for a closer look

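Histone pseudogene rows lie outside the comparisons above and carried signal. Of 18 such rows in the HIST1 and HIST2 clusters 8 were listed at 0 and 2 passed the count filter. HIST2H2BC had a mean of 29.05 CPM over the 9 libraries, more than most protein-coding members, and HIST2H2BD had 8.43 CPM, both above the 0.143 to 0.206 CPM that a count of 0 allows. HIST2H2BC had 28.1, 30.5 and 20.5 CPM with scramble, 36.1, 38.9 and 28.2 CPM with sh76 and 27.7, 28.96 and 22.4 CPM with sh78. Replicate 3 was the lowest in each group. Neither was called with sh76 (log2 fold changes 0.38 and 0.37, edgeR adjusted p 0.225 and 0.454), and both were higher with the replicate block (adjusted p 8.65e-05 and 0.0389). The block called 9.63% of all genes higher in that comparison. With sh78, 0 of the 2 were called against scramble in either fit. Between hairpins the block called both lower with sh78 than with sh76, against 8.62% of all genes.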

How the results depend on the processing

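Counts of histone genes called moved most with the replicate block, which gave 14 for sh76, 7 for sh78 and 7 for sh78 against sh76, in place of 2, 0 and 0. The 2 calls with sh76 were among the 14. It changed no other call of a histone gene. DESeq2 gave 5 (4 higher), 2 and 2, while it called 880, 989 and 856 of all 17023 genes. The fit without a low-count filter tested 61 members and gave 5 (4 higher), 3 and 2. That fit called 1149, 1212 and 1125 of all genes. Limma gave 1 and 1 on log2(FPKM + 1) and 1 and 1 on log2(FPKM + 0.1) for sh76 and sh78, and 0 between hairpins. Over all genes limma called 480, 553 and 457 with a pseudocount of 1, and 423, 559 and 436 with 0.1. RLE factors and a fit of only the groups compared gave 2, 0 and 0. Over all genes these called 615, 748 and 623, and 526, 631 and 602. Leaving out each library in turn gave 0 to 3 for sh76 (0 without scramble replicate 3 or sh76 replicate 2, and 1 without sh78 replicate 3), 0 to 1 for sh78 (1 without sh78 replicate 3), 0 to 0 between hairpins and 10 to 14 by replicate number. With a library left out, all genes called ranged from 237 to 655 for sh76, 418 to 810 for sh78, 273 to 780 between hairpins and 3708 to 4618 by replicate number. By replicate number RLE factors gave 14, DESeq2 11 and no filter 13, with 4899, 3125 and 4561 called over all genes. The histone sum, in alternatives chosen after seeing the data, stayed at 1.14 to 1.24 times scramble with sh76 and at 1.05 to 1.16 times with sh78 when a library was left out. Of the alternatives for single named genes, 821 stayed on the same side of the threshold, 36 gained a call and 9 lost one. Where either fit had a call, 0 reversed. A change of sign without a call in either fit was counted as the same, so these counts do not show that directions held. Depth limits low members: HIST1H2BO, at a mean of 0.718 CPM, had 5 to 19 counts a library.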
